A study of Mus musculus with 12 samples.

Results

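The 36 genes described here regulate the development of the kidney, and they were taken by name from a table of counts for 46403 genes. The list was drawn up from their known roles, by a rule that uses no measured value. Its members were nonetheless chosen with earlier results of these data known. It falls into regulators of the ureteric bud (9 genes), of all renal epithelium (3), of nephron progenitors (12), of early nephrons (7) and of stroma (5). All 36 were found in the table, and 35 passed the filter on low counts and were tested. Sall4, a zinc finger factor gene of embryonic cells, did not pass, with 0 to 25 counts per library.

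Polyadenylated RNA of the whole right kidney of untreated mice was sequenced in 12 libraries of 3 genotypes, in a study of cyst growth and the epithelial transcription factor Grhl2. The 5 wildtype libraries came from mice that the labels define as R26StopFLMYC; Grhl2 flox/flox, so these controls carry a MYC transgene that stays silent without Cre and a floxed Grhl2 gene. The 3 libraries of the group Myc are labelled Myc overexpression. Their identifiers hold the letters HET, and the labels state neither the cross nor the Grhl2 alleles of these mice. The 4 libraries of the group Grhl2KO_Myc are labelled as Grhl2 knockout with Myc overexpression, from a cross of HoxB7-Cre; Grhl2 flox/+ with R26StopFLMYC; Grhl2 flox/flox mice. HoxB7-Cre acts in the ureteric bud and in the collecting duct that grows from it, so the other cell types of the kidney were not targeted. A Grhl2 knockout without the MYC transgene was not analysed here, and the labels give no age. Nor do they say whether each library is from a different mouse, so the p-values cover only how far these samples spread, which may be technical.

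The kidney forms from the ureteric bud, a branching epithelial tube, and from the mesenchyme around it. GDNF from nephron progenitors activates the receptor RET and its co-receptor GFRA1 at the tips of the bud, and WNT9B from the bud induces progenitors to express Wnt4, become epithelial and build nephrons. Six2 and Cited1 keep progenitors undifferentiated, Foxd1 marks the stroma, and Pax2, Pax8 and Lhx1 act in the epithelium of both the duct and the nephron.

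Total counts lay between 52973520 and 108164810 per library. Levels are given as CPM, counts scaled by TMM to a common library total, and differences as log2 fold changes with their standard error (SE) and a p-value from edgeR's quasi-likelihood test, adjusted over 23742 genes. A gene was called where that adjusted p was under 0.05. Grhl2 was at 23.9 to 29.2 CPM in wildtype, 28.2 to 33 CPM in Myc and 18.5 to 24.3 CPM in Grhl2KO_Myc. It was lower in Grhl2KO_Myc than in Myc (-0.51, SE 0.10, adjusted p = 0.0443), a call lost without any 1 library except wildtype 1, wildtype 4 or Grhl2KO_Myc 3 (adjusted p = 0.0625 to 0.210). Between Grhl2KO_Myc and wildtype, Grhl2 was not called. The endogenous Myc gene was counted at 19.8 to 34.4, 19.1 to 27.6 and 27 to 32.2 CPM in the 3 groups in the same order. Wildtype 4, Grhl2KO_Myc 3 and Grhl2KO_Myc 4 stood apart: the mean log2 CPM of 13 proximal tubule markers, centred over all libraries, was -1.35, -1.11 and -0.96 there and lay between -0.095 and 0.77 in the other 9 libraries. All 13 markers were detected, and none was at 0 in all 12 libraries. Ddx3y, a Y-linked gene, exceeded 60 CPM in libraries 5 of wildtype, 3 of Myc and 1 and 4 of Grhl2KO_Myc, and Grhl2KO_Myc 3 was at 0 CPM of it and at 0.213 CPM of Xist. The X-linked gene Xist lay between 871 and 1006 CPM in wildtype 1 to 4, Myc 1 and 2 and Grhl2KO_Myc 2. These sex-linked genes were thus not balanced over the genotypes. Ribosomal RNA genes took 5.55% of the counts in Myc 1 and 0.160% to 0.581% in the other libraries.

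The members whose levels differed between the genotypes were Lhx1, Pax8 and Wnt4, and the DNA just upstream of their start sites is shown to place them. The stretches come from the RefSeq promoter table of build GRCm38.p6 and are written 5′ to 3′ on the strand of the gene, with a CCAAT box or its reverse complement ATTGG in capitals.
Lhx1, chr11:84525536-84525784, minus strand: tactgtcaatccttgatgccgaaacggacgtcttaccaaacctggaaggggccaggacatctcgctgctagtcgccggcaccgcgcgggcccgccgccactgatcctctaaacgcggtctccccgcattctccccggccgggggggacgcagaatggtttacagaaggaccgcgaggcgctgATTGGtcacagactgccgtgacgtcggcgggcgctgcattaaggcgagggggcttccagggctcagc
Pax8, chr2:24475600-24475849, minus strand: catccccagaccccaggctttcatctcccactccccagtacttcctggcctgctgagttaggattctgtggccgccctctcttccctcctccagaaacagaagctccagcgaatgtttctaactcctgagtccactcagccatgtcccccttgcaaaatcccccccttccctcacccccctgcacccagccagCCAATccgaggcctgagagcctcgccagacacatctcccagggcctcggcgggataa
Wnt4, chr4:137277385-137277488, plus strand: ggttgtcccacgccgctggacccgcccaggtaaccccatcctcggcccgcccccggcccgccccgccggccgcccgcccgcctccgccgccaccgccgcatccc
The Lhx1 stretch holds 26 CpG pairs and 64.7% G and C, that of Pax8 6 CpG pairs and 60.4%, and the shorter stretch of Wnt4 16 CpG pairs and 83.7%. Over all 32851 promoters of the table the median of the 250 bases upstream was 6 CpG pairs and 52.4%. CCAAT or ATTGG stood in 33.8% of those windows, a motif that was searched for after these sequences had been seen. The grainyhead consensus AACCGGTT was found on neither strand in any of the 36 promoters of 26 members in the table, over 300 bases around each start, and in 0.146% of all promoters. The E-box CACGTG, which MYC and other factors can bind, stood in the promoters of 3 members, Bmp4, Fgfr2 and Hoxd11, and in 7.15% of all promoters. A match is a run of letters and does not show a site in use, and no match says only that these letters are not in this window.

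Within wildtype kidneys the members spanned a wide range of levels per kilobase (kb) of gene width. Spry1, an inhibitor of RET and FGF receptor signalling, was highest at 42.7 CPM per kb, followed by Sox4 at 37.7, Sall1 at 35.4, Pax2 at 34.4, Hoxb7 at 30.6 and Wnt4 at 25.4 CPM per kb. The lowest tested members were Six4 at 1.01, Lgr5 at 1.44 and Fgf9 at 2.98 CPM per kb. The progenitor genes Six2 (19.9 CPM per kb) and Cited1 (11.6 CPM per kb) were measured in every library, as was the stromal gene Foxd1 (7.64 CPM per kb). Sall4 was at 0.0719, 0, 0.0144, 0 and 0 CPM in the wildtype libraries and at 0.142, 0.0533, 0.0427 and 0.228 CPM in Grhl2KO_Myc. It had 0 counts in the 3 Myc libraries, where the limit of 3 counts stands at 0.0298 to 0.0430 CPM. The kit does not mark strand, and 13 of the 36 members, Pax8 among them, share exon bases with an annotated gene on the other strand, so their counts cannot be told apart from those of the partner where both are transcribed. Fgfr2 also shares exon bases with Ctbp2 on its own strand in the annotation.

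**Figure D1:**
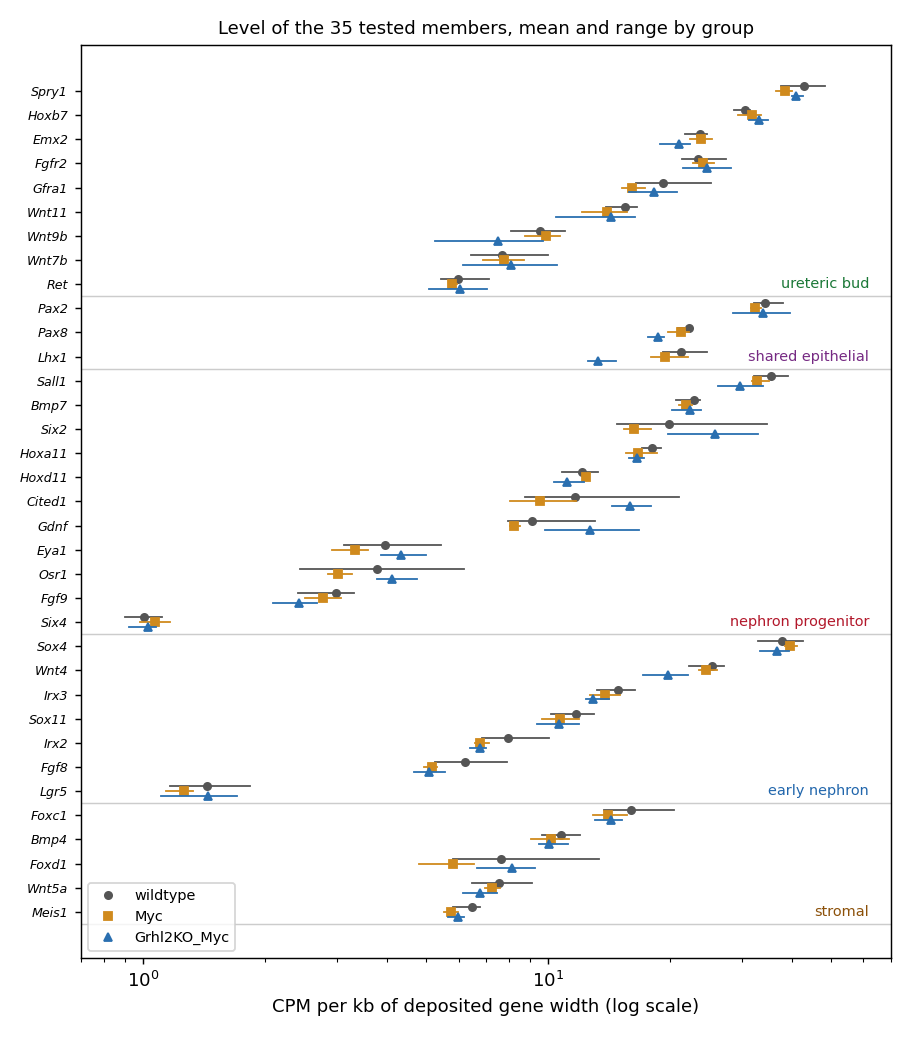
Level of each of the 35 tested members in CPM per kb of gene width (log scale), by lineage, as the mean (symbol) and the range over libraries (line) for wildtype (n = 5), Myc (n = 3) and Grhl2KO_Myc (n = 4). The ranges of Lhx1, Pax8 and Wnt4 in Grhl2KO_Myc lie below those of both other groups, and Six2, Cited1, Osr1 and Foxd1 have the widest ranges in wildtype.

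The genotypes give 3 comparisons, and any 2 of them share the libraries of 1 group.
Between Myc and wildtype no member was called. Of the 35, 27 lay below 0, with a median log2 fold change of -0.11 beside 0.00 for all genes tested. Among all genes 0.00421% were called higher and 0% lower, so the test made next to no calls at any gene. DESeq2 and limma-voom also called 0 members, and 3 members had an unadjusted p under 0.05, as did 1098 of all 23742 genes. These were Meis1 (-0.17, SE 0.060, adjusted p = 0.974), Fgf8 (-0.27, SE 0.12, adjusted p = 0.999) and Irx2 (-0.23, SE 0.10, adjusted p = 0.999). In no member did the Myc libraries lie all above or all below the wildtype libraries, as they did in 2.22% and 1.34% of all genes.

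Between Grhl2KO_Myc and wildtype 3 members were lower and 0 were higher. The 3 were Lhx1, Pax8 and Wnt4, transcription factor and signalling genes of renal epithelium. Among all genes 4.06% were called higher and 2.61% lower. The Grhl2KO_Myc libraries lay all below the wildtype libraries in those 3 members and all above them in 0 members, where 3.81% and 5.67% of all genes did so. The median over the 35 members was -0.095, and 23 lay below 0. An unadjusted p under 0.05 was found in 11 members and in 5212 of all 23742 genes. DESeq2 called 0 members higher and 4 lower (Sall1 beside the 3), where it called 6.30% and 5.09% of all genes, and limma-voom called 0 higher and 3 lower, where it called 4.31% and 2.57%. Without wildtype 4 4 members were called higher (Six2, Cited1, Gdnf and Foxd1), and the 3 lower members were joined by Fgf9. That setting also called more of all genes, 8.96% higher and 6.97% lower, so that 4 of 35 each way stood near these shares.

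Between Grhl2KO_Myc and Myc 1 member, Lhx1, was lower and 0 were higher. Among all genes 0.484% were called lower and 0.358% higher. With 9 members and 3161 of all 23742 genes at an unadjusted p under 0.05, DESeq2 and limma-voom also called only Lhx1, lower. The Grhl2KO_Myc libraries lay all above the Myc libraries in 6 members (Six2, Cited1, Gdnf, Osr1, Eya1 and Foxd1) and all below them in 3 (Lhx1, Pax8 and Wnt4), where 8.95% and 7.89% of all genes did so. The median over members was 0.025, with 17 below 0. Leaving out any 1 of Myc 1, Myc 2, Myc 3, Grhl2KO_Myc 1, Grhl2KO_Myc 2 or Grhl2KO_Myc 3 removed the call of Lhx1, as given with its values below.

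**Figure D2:**
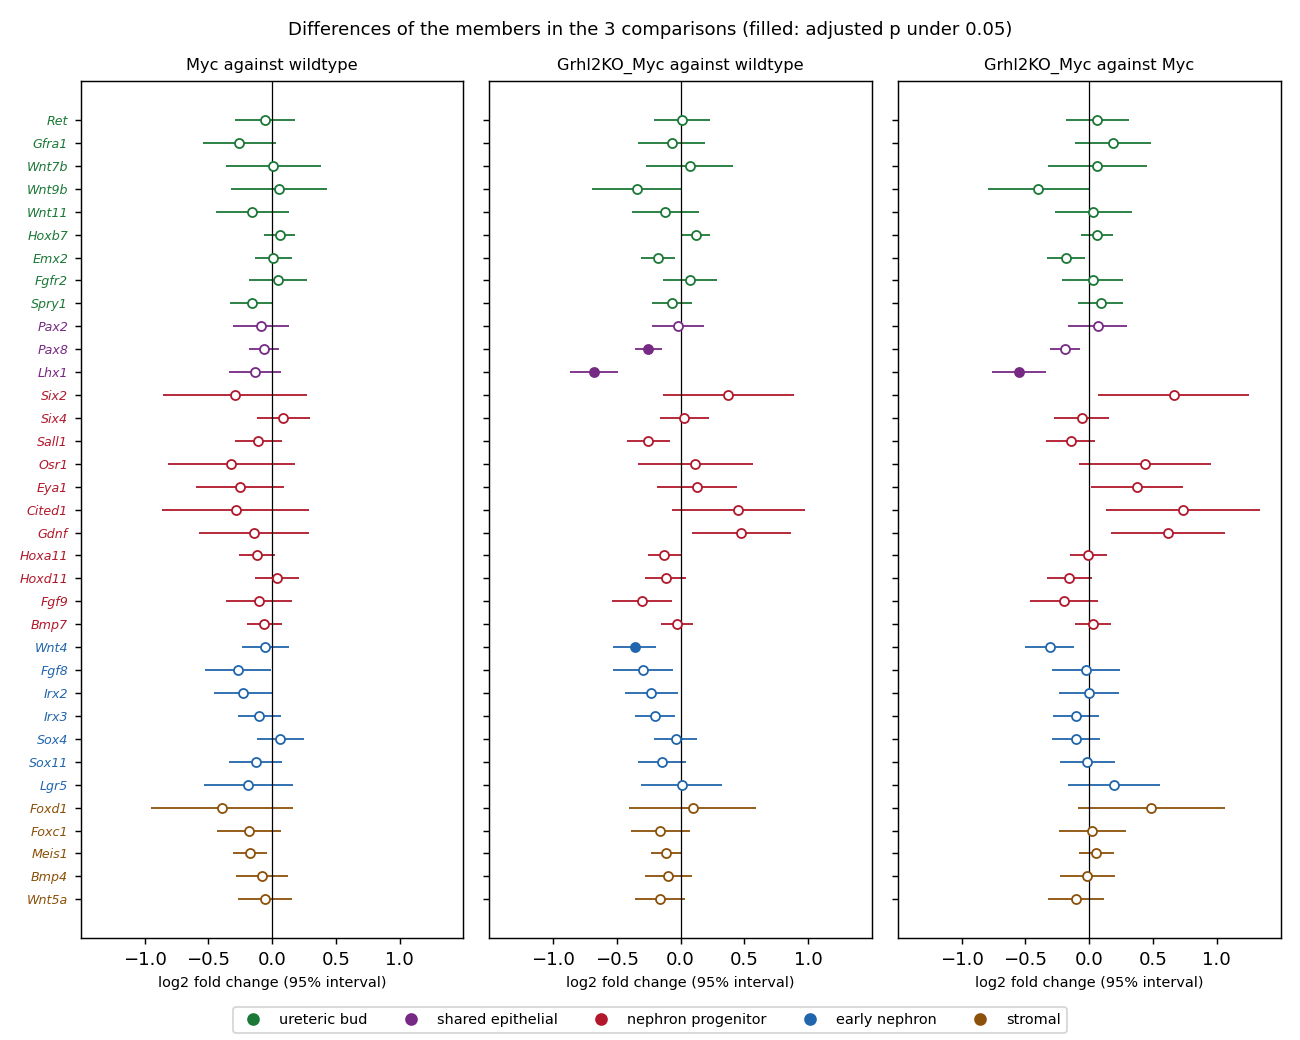
Log2 fold change of each of the 35 tested members with its 95% interval in the 3 comparisons, coloured by lineage, with filled points for an adjusted p under 0.05. Lhx1, Pax8 and Wnt4 are the filled points against wildtype and Lhx1 alone against Myc, while the intervals of Six2, Cited1, Osr1 and Foxd1 are the widest.

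Among the regulators of all renal epithelium, Lhx1 and Pax8 were lower in Grhl2KO_Myc than in wildtype and Pax2 was not called. Lhx1 (ENSMUSG00000018698.15, chromosome 11, 84518284 to 84525535, minus strand, mm10) encodes a LIM homeodomain factor that the Wolffian duct and the renal vesicle need. It was at 101, 85.9, 78.2, 81.3 and 86.8 CPM in wildtype 1 to 5, 90.1, 73.1 and 73.6 CPM in Myc 1 to 3 and 51.2, 50.9, 53.8 and 60 CPM in Grhl2KO_Myc 1 to 4. The 4 Grhl2KO_Myc libraries were below all 8 others and close to each other, and Myc overlapped wildtype. Lhx1 was 1.6-fold lower in Grhl2KO_Myc than in wildtype (-0.68, SE 0.087, adjusted p = 0.000896, 95% interval -0.87 to -0.49), and this call stood in all 23 alternatives. Against Myc it was 1.46-fold lower (-0.55, SE 0.097, adjusted p = 0.0226). That call was lost without Myc 1 (adjusted p = 0.120, log2 fold change -0.44), Myc 2 (0.0512), Myc 3 (0.0514), Grhl2KO_Myc 1 (0.0573), Grhl2KO_Myc 2 (0.0618) or Grhl2KO_Myc 3 (0.0655).

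Pax8 (ENSMUSG00000026976.15, chromosome 2, 24420560 to 24475599, minus strand, mm10) encodes a paired box factor of the nephron and the collecting system. It was at 137, 136, 137, 138 and 127 CPM in wildtype, 132, 135 and 119.7 CPM in Myc and 107, 117, 113 and 116 CPM in Grhl2KO_Myc. Wildtype libraries varied little around their mean, and each Grhl2KO_Myc library lay below every library of the other groups. The difference was small, 1.19-fold lower than wildtype (-0.25, SE 0.049, adjusted p = 0.00997, 95% interval -0.36 to -0.15), and it was called in all 23 alternatives. Against Myc the log2 fold change was not called (-0.19, SE 0.055, adjusted p = 0.152). The annotated gene Gm13415 overlaps exons of Pax8 on the other strand.

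Pax2, the paired box gene on which the formation of the kidney depends, was at 179, 185, 174, 206 and 185 CPM in wildtype, 173, 181 and 171 CPM in Myc and 154, 161, 203 and 214 CPM in Grhl2KO_Myc. The Grhl2KO_Myc libraries split, with 1 and 2 below every other library and 3 and 4 above every other library except wildtype 4, which lay between them. Over all libraries Pax2 did not pass in Grhl2KO_Myc against wildtype (-0.021, SE 0.094, adjusted p = 0.925, 95% interval -0.22 to 0.18). Without the 3 libraries low in proximal tubule markers it was called lower (-0.20, adjusted p = 0.0265).

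**Figure D3:**
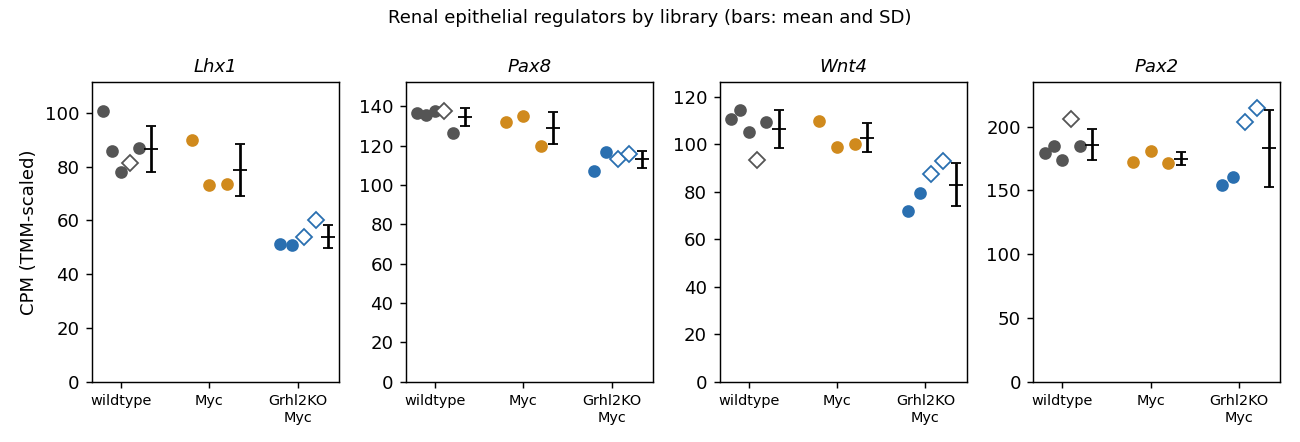
CPM of Lhx1, Pax8, Wnt4 and Pax2 in each library of wildtype (n = 5), Myc (n = 3) and Grhl2KO_Myc (n = 4), with the mean and SD as bars, where open diamonds are the 3 libraries low in proximal tubule markers. The Grhl2KO_Myc points of Lhx1, Pax8 and Wnt4 lie below all others, and in Pax2 the open diamonds lie above the filled points of their groups.

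Among the 7 early nephron regulators Wnt4 was called lower in Grhl2KO_Myc than in wildtype and the other 6 were not called. Wnt4 (ENSMUSG00000036856.4, chromosome 4, 137277489 to 137299726, plus strand, mm10) encodes the signal with which induced progenitors become epithelium. It was at 111, 114, 105, 93.3 and 109 CPM in wildtype, 109.6, 98.6 and 99.9 CPM in Myc and 72.1, 79.2, 87.5 and 92.7 CPM in Grhl2KO_Myc. All Grhl2KO_Myc libraries were below all others, although Grhl2KO_Myc 4 and wildtype 4 were close. Wnt4 was 1.28-fold lower than in wildtype (-0.36, SE 0.078, adjusted p = 0.0184, 95% interval -0.53 to -0.19) and not called against Myc (-0.31, SE 0.088, adjusted p = 0.145). Without the 3 libraries low in proximal tubule markers the log2 fold changes were -0.54 (adjusted p = 0.00227) and -0.45 (adjusted p = 0.0120), both called.

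In the rest of the early nephron group, Fgf8, a survival signal of nascent nephrons, was at 7.08 to 10.6 CPM in wildtype, 6.64 to 7.18 CPM in Myc and 6.3 to 7.5 CPM in Grhl2KO_Myc (-0.30, SE 0.11, adjusted p = 0.130 against wildtype). Irx2 and Irx3, Iroquois homeobox genes of the middle segments of the nephron, had log2 fold changes of -0.23 (adjusted p = 0.177) and -0.20 (adjusted p = 0.120) in the same comparison. Both ranges overlapped wildtype. Sox4 and Sox11, related transcription factor genes of many progenitor cells, had -0.038 (95% interval -0.21 to 0.13) and -0.14 (-0.33 to 0.046). Lgr5, which encodes an R-spondin receptor, had 0.0077 (-0.31 to 0.33). Of the 7 genes, 6 were below 0 against wildtype, with a median of -0.20.

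Among the 12 nephron progenitor regulators none was called over all libraries, and the calls of 4 of them depended on wildtype 4. Six2, the homeobox gene that keeps progenitors renewing, was at 36.7, 32.8, 31.3, 73.3 and 36.4 CPM in wildtype, 32.5, 32.9 and 38 CPM in Myc and 41.9, 47.5, 59 and 69.8 CPM in Grhl2KO_Myc. Every Grhl2KO_Myc library was above every Myc library and above wildtype 1, 2, 3 and 5, and wildtype 4 was the highest of all 12. Over all libraries the log2 fold change was 0.37, SE 0.24, adjusted p = 0.385 against wildtype and 0.66, SE 0.27, adjusted p = 0.316 against Myc. Without wildtype 4 it was 0.67 (adjusted p = 0.00684) against wildtype and 0.66 (adjusted p = 0.0353) against Myc. The fold change against Myc was the same with and without wildtype 4, which is in neither group of that comparison. The fit takes its estimate of spread from all groups together, and what lowered the p-value was not tested. Over all genes 1.43% were called higher against Myc in that setting, beside 0.358% with all libraries.

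Cited1, a transcriptional co-regulator gene of the least differentiated progenitors, was at 17.3, 15.8, 15.3, 37 and 16.7 CPM in wildtype, 14.1, 15.5 and 20.6 CPM in Myc and 25.2, 27.3, 28 and 31.4 CPM in Grhl2KO_Myc. As for Six2, wildtype 4 was the highest library and the Grhl2KO_Myc libraries came next, above all the rest. The log2 fold change was 0.45, SE 0.24, adjusted p = 0.295 against wildtype and 0.74, SE 0.28, adjusted p = 0.270 against Myc. Without wildtype 4 both were called, at 0.78 (adjusted p = 0.00101) and 0.74 (adjusted p = 0.00864). Gdnf, the gene of the RET ligand, was at 29.9, 28, 27.9, 45.9 and 27.8 CPM in wildtype, 28.6, 28.2 and 29.9 CPM in Myc and 34.5, 35.4, 48.9 and 58.7 CPM in Grhl2KO_Myc. Here Grhl2KO_Myc 3 and 4 were the highest libraries and wildtype 4 came next, above Grhl2KO_Myc 1 and 2. Its log2 fold change was 0.48, SE 0.18, adjusted p = 0.139 against wildtype, 0.64 (adjusted p = 0.0108) without wildtype 4, and 0.62, SE 0.21, adjusted p = 0.215 against Myc.

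These 3 genes also stood higher in Grhl2KO_Myc 1 and 2, whose proximal tubule markers were not low, than in wildtype 1, 2, 3 and 5. With wildtype 4, Grhl2KO_Myc 3 and Grhl2KO_Myc 4 all left out, the log2 fold change against wildtype was 0.38 for Six2 (adjusted p = 0.0298), 0.68 for Cited1 (adjusted p = 0.0130) and 0.29 for Gdnf (adjusted p = 0.0134), on 2 libraries against 4. In that setting 4.87% of all genes were called higher and 4.61% lower. With the score of proximal tubule markers as a further term in the fit 0 members were called higher and 9 lower, which were Lhx1, Pax8, Wnt4, Gfra1, Sall1, Hoxd11, Fgf8, Irx2 and Foxc1, where 4.46% of all genes were called lower. Fewer cells of a type and less RNA per cell cannot be told apart in RNA of a whole kidney.

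**Figure D4:**
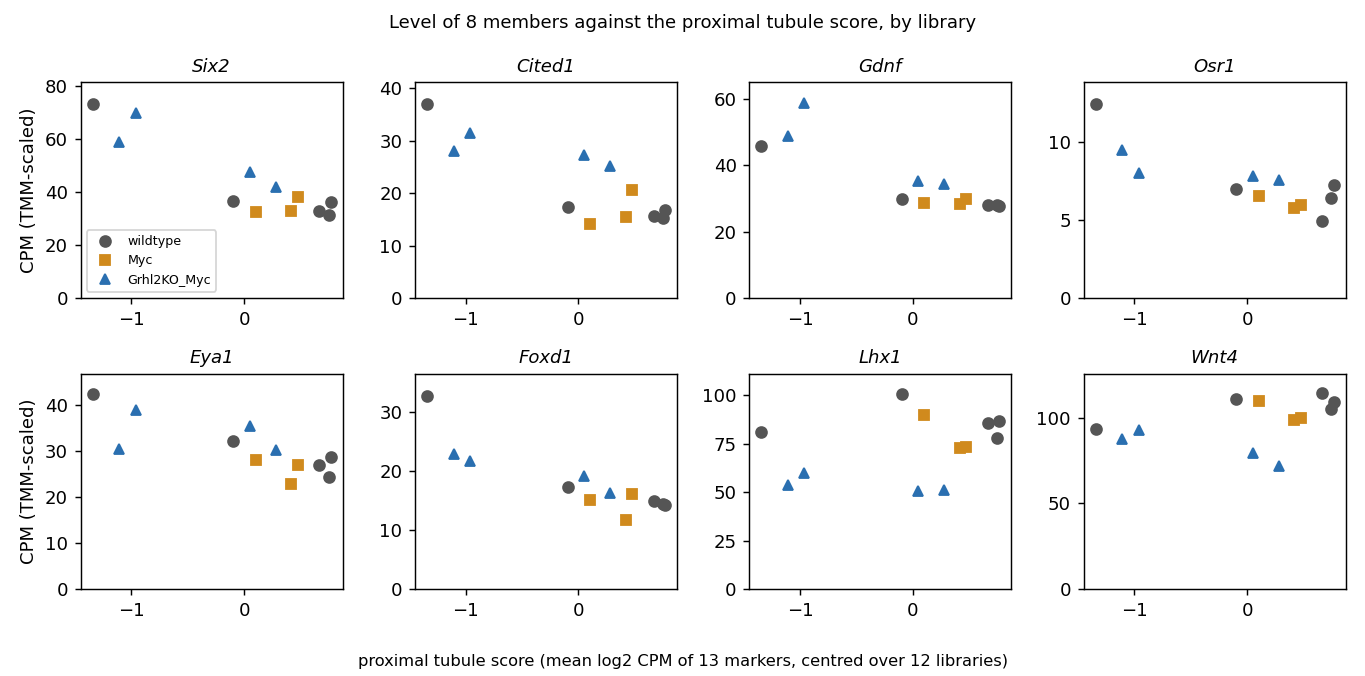
CPM of 8 members in each of the 12 libraries against the proximal tubule score, the mean log2 CPM of 13 markers centred over libraries, with symbols by genotype. The leftmost point, wildtype 4, is the highest of all libraries in Six2, Cited1, Osr1, Eya1 and Foxd1 and of wildtype in Gdnf, while the Grhl2KO_Myc points of Lhx1 and Wnt4 are low on both sides of the plot.

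The remaining progenitor genes were not called in any of the 3 comparisons. Osr1, a zinc finger gene of the earliest kidney mesoderm, was at 7.01, 4.91, 6.42, 12.4 and 7.27 CPM in wildtype, 6.57, 5.75 and 5.95 CPM in Myc and 7.59, 7.85, 9.5 and 8.02 CPM in Grhl2KO_Myc. Eya1, a co-activator gene that works with Six2, was at 32.1, 26.9, 24.4, 42.4 and 28.7 CPM in wildtype, 28.1, 22.9 and 27 CPM in Myc and 30.2, 35.3, 30.4 and 38.9 CPM in Grhl2KO_Myc. In both genes wildtype 4 was highest and the Myc libraries lay below every Grhl2KO_Myc library, with log2 fold changes of 0.44, SE 0.24, adjusted p = 0.467 for Osr1 and 0.38, SE 0.17, adjusted p = 0.351 for Eya1. Sall1, a zinc finger gene that progenitors need, was at 205, 182, 169, 184 and 189 CPM in wildtype, 184, 167 and 167 CPM in Myc and 138, 144, 164 and 178 CPM in Grhl2KO_Myc. Grhl2KO_Myc 1, 2 and 3 were below every other library and Grhl2KO_Myc 4 was within the range of wildtype. Its log2 fold change against wildtype missed the threshold (-0.25, SE 0.079, adjusted p = 0.0783), and it was called by DESeq2 (adjusted p = 0.0323), without Grhl2KO_Myc 4 (-0.32, adjusted p = 0.0429) and without the 3 libraries low in proximal tubule markers (-0.41, adjusted p = 0.0145).

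Fgf9, which encodes a growth factor that maintains progenitors, was at 14.2, 13, 12.2, 10.3 and 14 CPM in wildtype and 10.7, 11.4, 8.89 and 10.3 CPM in Grhl2KO_Myc. Its log2 fold change was -0.30, SE 0.11, adjusted p = 0.122 over all libraries and -0.37 (adjusted p = 0.0200) without wildtype 4, which was the lowest wildtype library. Bmp7, another survival signal of progenitors, lay between 81.2 and 95.8 CPM in all 12 libraries (-0.032 against wildtype, 95% interval -0.16 to 0.093). Hoxa11 and Hoxd11, which act together in the metanephric mesenchyme, had -0.13 (-0.25 to 0.0014) and -0.12 (-0.28 to 0.040) in that comparison. Six4, a relative of Six2, had 0.030 (-0.16 to 0.22). Of the 11 progenitor genes tested, 6 were above 0 and 5 below 0 against wildtype, with a median of 0.030.

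None of the 9 ureteric bud regulators, genes of the lineage in which HoxB7-Cre acts, was called in any comparison. Among all genes 4.06% were called higher and 2.61% lower against wildtype, and 0.358% and 0.484% against Myc. A count of 0 of 9 lay near these shares. Ret was at 42.2, 37.1, 36.7, 48.3 and 38.5 CPM in wildtype, 38.4, 38.7 and 40.1 CPM in Myc and 34.3, 38.5, 42.8 and 47.7 CPM in Grhl2KO_Myc. The groups overlapped throughout, with a log2 fold change against wildtype of 0.011 (95% interval -0.21 to 0.23). Gfra1, its co-receptor gene, was at 90.1 to 138 CPM in wildtype and 86.5 to 114 CPM in Grhl2KO_Myc (-0.071, 95% interval -0.33 to 0.19). Hoxb7 itself, a homeobox gene of the Wolffian duct and its branches, was at 47.7, 48.2, 44.4, 48.7 and 46.9 CPM in wildtype, 50.2, 51.9 and 45.4 CPM in Myc and 48.3, 50, 53 and 53.9 CPM in Grhl2KO_Myc. It varied by little, and its log2 fold change against wildtype was 0.12, SE 0.052, adjusted p = 0.196.

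Among the Wnt genes of the bud, Wnt9b, the stalk signal that induces progenitors, was at 38.7, 49.8, 36.5, 42.6 and 47.5 CPM in wildtype, 39.6, 48.3 and 46.1 CPM in Myc and 28.7, 23.7, 43.8 and 39.4 CPM in Grhl2KO_Myc. Grhl2KO_Myc 1 and 2 were the lowest of all libraries, and Grhl2KO_Myc 3 and 4 were within the range of the other groups. Over all libraries it was not called (-0.34, SE 0.16, adjusted p = 0.237 against wildtype and -0.40, SE 0.18, adjusted p = 0.372 against Myc), and without the 3 libraries low in proximal tubule markers it was called lower in both (-0.72, adjusted p = 0.0138, and -0.77, adjusted p = 0.0373). Wnt11, a gene of the tips that responds to RET, was at 50.5 to 60.2 CPM in wildtype and 38 to 59.4 CPM in Grhl2KO_Myc, and Wnt7b, a gene of the collecting duct that the medulla needs, at 28.5 to 43.9 and 27.1 to 46.2 CPM. Their 95% intervals against wildtype were -0.38 to 0.14 and -0.27 to 0.41.

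Emx2, a homeobox gene needed for the bud to branch, was at 73.7, 74.2, 65.3, 71.3 and 71.7 CPM in wildtype, 76.2, 67.2 and 71.5 CPM in Myc and 66.9, 56.8, 61.6 and 67.3 CPM in Grhl2KO_Myc. Grhl2KO_Myc 1 and 4 reached into the range of wildtype, Grhl2KO_Myc 2 and 3 were below all others, and the log2 fold change did not pass (-0.17, SE 0.062, adjusted p = 0.117 against wildtype and -0.18, SE 0.070, adjusted p = 0.278 against Myc). Fgfr2, the FGF receptor gene of the bud and the mesenchyme, had 0.073 (95% interval -0.14 to 0.28) against wildtype. Spry1 had -0.067 (-0.22 to 0.087).

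None of the 5 stromal regulators was called. Foxd1, the forkhead gene that marks stromal progenitors, was at 17.3, 15, 14.5, 32.8 and 14.4 CPM in wildtype, 15.1, 11.8 and 16.1 CPM in Myc and 16.4, 19.2, 22.9 and 21.8 CPM in Grhl2KO_Myc. Wildtype 4 was the highest library by far, and all Grhl2KO_Myc libraries were above all Myc libraries. The log2 fold change was 0.094, SE 0.23, adjusted p = 0.853 against wildtype, 0.49, SE 0.27, adjusted p = 0.467 against Myc, and 0.39 (adjusted p = 0.0473) against wildtype without wildtype 4. Foxc1, another forkhead gene, was at 54.4 to 80.8 CPM in wildtype and 51.5 to 60.1 CPM in Grhl2KO_Myc (-0.16, 95% interval -0.39 to 0.072). Meis1, a homeobox gene found throughout the stroma, had -0.12 (-0.23 to 0.0028). Bmp4, a signal of the mesenchyme around the duct that limits budding, had -0.10 (-0.28 to 0.092), and the mesenchymal signal Wnt5a had -0.16 (-0.35 to 0.036). Without the 3 libraries low in proximal tubule markers Wnt5a was called lower against wildtype (-0.34, adjusted p = 0.0418).

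The libraries low in proximal tubule markers differed from their own groups in many members. Wildtype 4 was above wildtype 1, 2, 3 and 5 in 20 of the 35 tested members and below all of them in 5. Grhl2KO_Myc 3 and 4 were both above Grhl2KO_Myc 1 and 2 in 22 members and both below in 2. Both held in 13 members, among them 5 of the 9 ureteric bud regulators and 4 of the 11 progenitor regulators. The ratio of wildtype 4 to the mean of the other wildtype libraries was 2.27 for Cited1, 2.15 for Foxd1, 2.14 for Six2, 1.94 for Osr1, 1.61 for Gdnf and 1.51 for Eya1. Grhl2KO_Myc 1 and 2 taken alone were both above wildtype 1, 2, 3 and 5 in 5 members, Hoxb7, Six2, Osr1, Cited1 and Gdnf, and both below in 11. The shares of all genes on each side of these splits were not counted. The counts therefore do not show whether the members differ from other genes here.

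Other genes of the same pathways, in lists also chosen with earlier results of these data known, were counted between Grhl2KO_Myc and wildtype. Among all genes 4.06% were called higher and 2.61% lower there, and 8.96% and 6.97% without wildtype 4. Of 10 further genes of the ureteric bud and its duct, 2 fell and 1 rose. Elf5, an ETS factor gene of the duct, was at 19.6 to 23.4 CPM in wildtype, 22.4 to 27.1 CPM in Myc and 4.94 to 6.76 CPM in Grhl2KO_Myc (-1.90, SE 0.10, adjusted p = 3.55e-06). Ros1, which encodes a receptor tyrosine kinase, was at 10.6 to 12.3, 8.0 to 10.2 and 3.33 to 5.87 CPM in the same order (-1.25, SE 0.15, adjusted p = 0.000685). Gata2, a zinc finger factor gene, rose (0.65, SE 0.10, adjusted p = 0.00279), and without wildtype 4 the genes that rose numbered 2. Elf5 and Ros1 were also lower against Myc (-2.14, SE 0.11, adjusted p = 4.55e-06 for Elf5; -0.90, SE 0.17, adjusted p = 0.0269 for Ros1). Ros1 lost that call without Myc 1, Myc 2, Myc 3 or Grhl2KO_Myc 1 (adjusted p = 0.0563 to 0.141).

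Of 14 further genes of early nephrons 6 fell and 0 rose, with a median log2 fold change of -0.36, beside -0.0074 over all genes tested, and 13 below 0. Cdh6, the cadherin gene of the early proximal part of the nephron, was at 9.69, 8.2, 8.61, 7.97 and 7.58 CPM in wildtype and 5.15, 5.5, 5.81 and 5.06 CPM in Grhl2KO_Myc (-0.64, SE 0.11, adjusted p = 0.00448). Jag1, the Notch ligand gene, was at 154, 139, 127, 133 and 138 CPM in wildtype and 101, 97.6, 111 and 109 CPM in Grhl2KO_Myc (-0.40, SE 0.069, adjusted p = 0.00517). Hey1, a target gene of Notch, had -0.49, SE 0.097, adjusted p = 0.0109. In these 3 genes the groups did not overlap. The count was 9 without wildtype 4 and at least 5 with any other library left out. Against Myc 0 of the 14 were called, with a median of -0.25.

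Of 21 further Wnt pathway genes 1 rose and 3 fell. Sfrp2, a secreted Wnt modulator gene, was at 93.8 to 108 CPM in wildtype and 69.7 to 80.3 CPM in Grhl2KO_Myc (-0.41, SE 0.059, adjusted p = 0.00182). Fzd4 (-0.66, SE 0.15, adjusted p = 0.0241) and Lgr4 (-0.43, SE 0.11, adjusted p = 0.0370), receptor genes for Wnt proteins and R-spondins, were lower with calls that depended on single libraries. Fzd4 lost its call without wildtype 1, Grhl2KO_Myc 2 or Grhl2KO_Myc 4 (adjusted p = 0.0517 to 0.0649). Lgr4 lost it without wildtype 3 or any 1 Myc or Grhl2KO_Myc library (adjusted p = 0.0511 to 0.0914). The 1 higher gene was the ligand gene Wnt10a, named after its values were seen, at 0.845, 1.23, 0.880, 1.47 and 0.833 CPM in wildtype and 3.1, 2.2, 1.72 and 1.52 CPM in Grhl2KO_Myc (1.01, SE 0.27, adjusted p = 0.0427). No gene of the list was called higher without wildtype 1, 2, 3 or 5, Myc 1, Myc 3, Grhl2KO_Myc 1 or Grhl2KO_Myc 3. The lower count of 3 was 1 without Grhl2KO_Myc 2 or Grhl2KO_Myc 4 and 5 without wildtype 4.

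Of 13 genes that report RET and FGF signalling 2 rose and 0 fell, the chemokine receptor gene Cxcr4 (0.53, SE 0.14, adjusted p = 0.0376) and the transcription factor gene Myb (0.40, SE 0.10, adjusted p = 0.0381). Both calls were lost without wildtype 3, Myc 2, Grhl2KO_Myc 1, Grhl2KO_Myc 3 or Grhl2KO_Myc 4, which left 0 genes called, and without wildtype 4 the list held 4 higher genes and 1 lower gene. Cxcr4 was also lost without wildtype 1 or 2 (adjusted p = 0.0526 to 0.105 over all 7 libraries). Myb was also lost without wildtype 5, Myc 1, Myc 3 or Grhl2KO_Myc 2 (adjusted p = 0.0562 to 0.0996 over all 9).

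Of 17 further progenitor genes 1 rose and 1 fell. Crym, which encodes a thyroid hormone binding protein, rose (0.51, SE 0.12, adjusted p = 0.0284), a call lost without wildtype 1, 2 or 3, Grhl2KO_Myc 3 or Grhl2KO_Myc 4 (adjusted p = 0.0639 to 0.0906). Slit2, a guidance signal gene, was lower (-0.35, SE 0.082, adjusted p = 0.0260), a call lost without wildtype 1, 2 or 3, Grhl2KO_Myc 1 or Grhl2KO_Myc 4 (adjusted p = 0.0526 to 0.0717). Without wildtype 4 the list held 2 higher and 4 lower genes. Of 16 further stromal genes 0 were called over all libraries, with 7 at an unadjusted p under 0.05, 1 was lower without wildtype 4, wildtype 5 or Grhl2KO_Myc 2, and 1 was higher without wildtype 4. Of 33 other Hox genes tested 3 were lower and 0 higher. Hoxa9 was at 108 to 135 CPM in wildtype and 93.1 to 97 CPM in Grhl2KO_Myc (-0.36, SE 0.070, adjusted p = 0.0108), while Hoxc6 (-0.35, SE 0.089, adjusted p = 0.0374) and Hoxd10 (-0.26, SE 0.070, adjusted p = 0.0427) each lost their call without wildtype 1, wildtype 3, Myc 2 or any 1 Grhl2KO_Myc library (adjusted p of 0.0560 to 0.0907 and 0.0536 to 0.111 over every library that ended a call). Hoxd10 also lost it without wildtype 2 or Myc 1. The count of 3 was 1 without wildtype 1, Myc 2 or any 1 Grhl2KO_Myc library and 4 without wildtype 5, and 1 was higher without wildtype 4 or 5. Between Myc and wildtype 0 genes of these 7 lists were called, and between Grhl2KO_Myc and Myc only Elf5 and Ros1 were. Without wildtype 4 that last comparison also held 2 higher genes and 1 lower gene of RET and FGF signalling, 1 lower early nephron gene (likewise without wildtype 1) and 1 higher progenitor gene (likewise without Grhl2KO_Myc 1). Among all genes 1.43% were called higher and 1.53% lower in that comparison without wildtype 4, beside 0.358% and 0.484% with all libraries.

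Several of these counts against wildtype also moved with the model, as did the share of all genes called. Among all genes 2.61% were called lower in the main fit and 4.46% with the proximal tubule score. The share was 4.61% without the 3 libraries low in proximal tubule markers and 5.09% by DESeq2. With the proximal tubule score in the fit 12 other Hox genes, 5 stromal, 5 progenitor and 4 ureteric bud genes were lower, in place of 3, 0, 1 and 2. Without the 3 libraries low in proximal tubule markers 7 Wnt pathway and 4 ureteric bud genes were lower, in place of 3 and 2. DESeq2 called 7 other Hox genes, 4 progenitor, 4 ureteric bud and 2 stromal genes lower. The 2 higher genes of RET and FGF signalling were 0 with a replicate block, and no Wnt pathway gene was higher with limma-voom. Those settings called 2.7% and 4.31% of all genes higher. The further early nephron genes that were lower numbered at least 4 in every alternative, and 3 of them were lower than Myc by DESeq2. DESeq2 called 1.6% of all genes lower than Myc.

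Markers of mature and neighbouring cell types moved beside these differences, and their part in them was not tested. The shares of all genes called between Grhl2KO_Myc and wildtype were 4.06% higher and 2.61% lower. Summed over 13 proximal tubule markers the level was 943 to 3783 CPM in wildtype, 2398 to 3293 CPM in Myc and 1172 to 2475 CPM in Grhl2KO_Myc. None was called in Grhl2KO_Myc against wildtype, and all 13 had a log2 fold change below 0, with a median of -0.53, further from 0 than the -0.36 of the further early nephron genes. Of 4 podocyte markers Podxl (-0.41, SE 0.067, adjusted p = 0.00367) and Nphs1 (-0.64, SE 0.14, adjusted p = 0.0217) were lower in Grhl2KO_Myc than in wildtype, and the list summed to 495 to 552 against 636 to 757 CPM. Nphs1 lost its call without wildtype 1, wildtype 3, Grhl2KO_Myc 3 or Grhl2KO_Myc 4 (adjusted p = 0.0504 to 0.0686). Of 5 endothelial markers the receptor genes Kdr (adjusted p = 0.0185) and Flt1 (adjusted p = 0.0254) were lower, at 399.5 to 438 against 452 to 501 CPM in all. Both lost their call without Grhl2KO_Myc 3, and Flt1 also without wildtype 3, Grhl2KO_Myc 1 or Grhl2KO_Myc 4 (adjusted p = 0.0543 for Kdr and 0.0590 to 0.0696 for Flt1). Of 8 markers of principal cells, which take up water and salt in the collecting duct, Avpr2 (-0.93, SE 0.10, adjusted p = 0.000289) and Aqp4 (-1.29, SE 0.18, adjusted p = 0.00161) were lower, while 4 of the 8 had a log2 fold change above 0 and the list summed to 660.0 to 804 against 570.3 to 909.7 CPM. The largest was that of Hsd11b2, an enzyme gene named after its values were seen, whose Grhl2KO_Myc libraries were all above wildtype without a call (0.75, SE 0.22, adjusted p = 0.0661). Of 6 intercalated cell markers the factor gene Foxi1 was higher (0.64, SE 0.15, adjusted p = 0.0261), at 96.1 to 112 against 69.5 to 116 CPM in all. Leaving out library 1 or 3 of wildtype or library 1, 3 or 4 of Grhl2KO_Myc ended that call (adjusted p = 0.0514 to 0.0818). The other intercalated markers did not go with it: 4 of the 6 had a log2 fold change below 0 against wildtype, with a median of -0.10 and Insrr lowest at -0.63. Against Myc all 6 were below 0, and the proton pump gene Atp6v0d2 was called lower (-0.47, SE 0.098, adjusted p = 0.0480), which no longer held without any 1 library except wildtype 1 or wildtype 4 (adjusted p = 0.0517 to 0.210). Of 5 cell cycle markers 1, Mki67, was lower (-0.30, SE 0.069, adjusted p = 0.0238), at 210.1 to 238 CPM in wildtype and 168 to 205 CPM in Grhl2KO_Myc. It lost its call without wildtype 1, Grhl2KO_Myc 1, Grhl2KO_Myc 2 or Grhl2KO_Myc 3 (adjusted p = 0.0548 to 0.0636). Of 6 immune markers 5 were tested and Ptprc, the gene of CD45, was higher (0.90, SE 0.12, adjusted p = 0.00118), with 46.7 to 53.8 against 33.2 to 42.7 CPM for the list. Fibroblast, smooth muscle, urothelial, fat and adrenal markers had 0 called. Against wildtype all 4 fat markers were below 0 (median -1.65), and all 6 urothelial (0.53) and all 6 smooth muscle markers (0.25) were above 0. The sums overlapped between the groups. In wildtype and Grhl2KO_Myc they were 119 to 228 and 133 to 147 CPM for fat and 36.3 to 86.7 and 22.4 to 130 CPM for urothelium. For smooth muscle they were 311 to 611 and 383 to 705 CPM. Wildtype 4 alone gave the fat sum of 228 CPM. Of the 6 fibroblast markers 4 were below 0 and 2 above (-0.045), and the 2 adrenal markers tested were above 0 (0.067). No marker of these lists was at 0 in all 12 libraries.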

How the data were processed

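Each library was made from polyadenylated RNA of a right kidney with the TruSeq RNA kit version 2, per the labels' protocols. Reads were aligned with HISAT2 to mm10, per the submitters' processing notes. For the counting program and its annotation, the sources used here give no name. The authors deposited raw counts per gene, unnormalized, with a width in bases for each gene. Columns were matched to samples by identifier, and 0 columns were left over.

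The members and lists were chosen with earlier results of these data known. Counts were tested with edgeR 4.0.16 in R 4.3.3 (TMM scaling, filterByExpr, quasi-likelihood F test), all 12 libraries in 1 fit with 1 coefficient for each genotype, with Benjamini-Hochberg adjustment over 23742 genes. After the main fit the test was also run on simulated counts with known changes. A high recovery was required there only of the largest of those changes. CPM per kb divides by the deposited width. Log2 values for the proximal tubule score used a prior count of 2. The replicates of a group differed by a chi-square of at least 12.7 per degree of freedom, so each counted once. All members were named, from each other list up to 3 called genes with the smallest adjusted p, and Grhl2 and Myc.

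Alternatives were RLE and upper-quartile scaling, other filters, DESeq2 1.42.0, limma-voom (limma 3.58.1), only the groups compared, a replicate block, a term for Ddx3y, a proximal tubule covariate, and libraries left out singly or the 3 low in proximal tubule markers. The Ddx3y term split libraries at 10 CPM, which placed Grhl2KO_Myc 3 with the libraries high in Xist. Coordinates are from GENCODE M21 of mm10, which matched 36 of 36 members, and promoters from RefSeq on GRCm38.p6.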

Additional observations from a re-analysis of the deposited data

Results flagged for a closer look

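In 9 of 72 groups of 4 or 5 libraries, 1 for each member in wildtype and in Grhl2KO_Myc, a single library stood far from the rest. Chance gives about 1 in 20 groups where groups are independent. The 72 groups come from the same libraries, so they are not independent and the count is no test of an excess. Of these 9, 5 were wildtype 4, the wildtype library low in proximal tubule markers. It was high in Six2 at 73.3 CPM, in Cited1 at 37.0 CPM, in Gdnf at 45.9 CPM and in Foxd1 at 32.8 CPM, and low in Bmp7 at 83.2 CPM. Wildtype 5 was low in Pax8 at 126.7 CPM, where the other 4 wildtype libraries lay between 135.6 and 137.5 CPM. Wildtype 1 was high in Sall4 at 0.0719 CPM, a level of a few counts. Grhl2KO_Myc 2 was high in Irx3 at 36.9 CPM and Grhl2KO_Myc 1 was high in Bmp4 at 24.9 CPM, both within the range of wildtype.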

How the results depend on the processing

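Calls of Lhx1 and Pax8 against wildtype stood in all 23 alternatives. Wnt4 lost its call there only with a replicate block (adjusted p = 0.0864), and Lhx1 lost its call against Myc with that block (adjusted p = 0.0704). With the replicate block Grhl2KO_Myc against wildtype had 1 member higher and 2 lower, and Grhl2KO_Myc against Myc 0 lower. The shares of all genes were 2.70%, 1.48% and 0.265% in the same order. Of 10 pairs of same-numbered libraries, 1 had deviations from the group means that correlated above 0.1 (r = -0.11 to 0.23). The labels do not say that the numbers pair samples, and correlations in groups this small cannot decide it. Without the 3 libraries low in proximal tubule markers, which leaves 2 of Grhl2KO_Myc, 3 members were higher and 7 lower than wildtype and 3 lower than Myc. Among all genes the shares there were 4.87%, 4.61% and 0.901% in the same order. With the proximal tubule covariate 9 were lower than wildtype and 2 lower than Myc, beside 4.46% and 0.632% of all genes. Foxd1 turned to -0.11 against wildtype there. With only the 2 groups compared 1 member, Cited1, was higher than Myc, beside 0.468% of all genes. With single libraries left out, members called against wildtype ranged from 0 to 4 higher and from 3 to 4 lower, and against Myc from 0 to 2 higher and from 0 to 1 lower. The shares of all genes ranged from 2.01% to 8.96% higher and from 1.17% to 6.97% lower against wildtype. Against Myc they ranged from 0.0786% to 1.43% higher and from 0.206% to 1.53% lower. Over the same settings the log2 fold change against wildtype ranged from -0.14 to 0.047 for Gfra1 and from -0.11 to 0.044 for Pax2, both crossing 0. The cause of these changes was not tested. Of all genes tested 1584 were called against wildtype, 3778 without wildtype 4, 750 without Grhl2KO_Myc 4 and 2703 by DESeq2. Tested members had at least 384 counts in every library, and Sall4, at 0 to 25 counts, was tested only with no filter beyond 1 count or without Myc 1, 2 or 3, and was called in none of these 4 settings.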
